A study of Mus musculus with 9 samples.

Results

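A set of 9 transcription factor genes that pattern the oral and maxillary mesenchyme were followed in the lambdoidal junction of mouse embryos, namely Osr1, Osr2, Shox2, Gsc, Hand2, Barx1, Lhx6, Lhx8 and Pitx1. They were chosen by name, as 9 of the 54532 genes in the deposited table. The lambdoidal junction is the place where the maxillary, medial nasal and lateral nasal processes meet and fuse into the upper lip and primary palate. Tissue was taken from C57BL/6J embryos, with no mutation or treatment in any group, on embryonic days 10.5 (E10.5), 11.5 (E11.5) and 12.5 (E12.5), and 3 RNA-seq libraries were made per stage. Each library came from a pool of many embryos, so a value is an average over embryos and over all cell types of the dissected piece. The sources used here do not tell whether pools of 1 stage shared litters, and p-values measure the spread between these pools.

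Facial mesenchyme comes largely from neural crest cells, which take up regional identities from signals of the overlying ectoderm. FGF8 of the oral ectoderm induces the LIM homeobox genes Lhx6 and Lhx8, Barx1 and Pitx1 on the oral side of the jaws, while endothelin signaling through its receptor Ednra induces Dlx5, Dlx6 and then Hand2 in the lower jaw. Osr1, Osr2 and Shox2 are best known from the later palatal shelves, where Osr2 promotes shelf growth and restricts the tooth field, and Shox2 acts in the anterior palate.

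The libraries held between 16581009 and 20836804 counts. E10.5 replicate 3 stood apart from the other libraries of its stage: over 16363 genes its log2 difference from the mean of E10.5 replicates 1 and 2 had a median of -0.45 for the 3696 genes with a GC content of at least 55% and of 0.44 for the 4243 genes under 45%. Of 7 markers of facial mesenchyme, all were detected, and their summed level was between 968 and 1674 CPM (counts scaled to a library size of 1e6) at E10.5, between 2108 and 2199 CPM at E11.5 and between 2149 and 2249 CPM at E12.5. One of these markers, the growth factor receptor gene Pdgfra, was upregulated from E10.5 to E11.5 and none was downregulated, and over the whole span Pdgfra and Alx1 were upregulated. The 6 markers of the basal forebrain, a brain region that also uses Lhx6 and Lhx8, summed to between 152 and 232 CPM at E10.5, 54.3 and 61.0 CPM at E11.5, and 46.1 and 59.0 CPM at E12.5. In such bulk samples fewer cells of a type and less RNA per cell cannot be told apart.

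All 9 genes are protein coding, and their coordinates are those of GRCm38 in the deposited table. Osr1 (ENSMUSG00000048387) lies on chromosome 12 from 9570116 to 9581500 and Osr2 (ENSMUSG00000022330) on chromosome 15 from 35296098 to 35303305, both on the plus strand. Shox2 (ENSMUSG00000027833) lies on chromosome 3 from 66971727 to 66981771 on the minus strand. Gsc (ENSMUSG00000021095) lies on chromosome 12 from 104471209 to 104473330 on the minus strand. Hand2 (ENSMUSG00000038193) lies on chromosome 8 from 57320983 to 57324633 and Barx1 (ENSMUSG00000021381) on chromosome 13 from 48662998 to 48666507, both on the plus strand. Lhx6 (ENSMUSG00000026890) lies on chromosome 2 from 36081953 to 36105408 and Lhx8 (ENSMUSG00000096225) on chromosome 3 from 154306294 to 154330659, both on the minus strand. Pitx1 (ENSMUSG00000021506) lies on chromosome 13 from 55825051 to 55836192 on the minus strand. Other genes share 19.6% of the exon bases of Hand2, 10.3% of those of Pitx1, 4.62% of those of Shox2 and 2.16% of those of Lhx6, and none of those of the other 5 genes. Whether counting used the strand of a read is not given in the sources used here, so in the shared stretches reads of a gene and of its antisense partner may not be told apart.

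The start regions of 4 of the genes are shown because 3 of them face or overlap a gene on the other strand that was measured in the same libraries, and because the 4th, Hand2, was the gene with the fewest counts. Each runs from 250 bases before to 50 bases after a RefSeq start of GRCm38.p6, is written 5′ to 3′ on the strand of the gene, and has the letters TAATTA and TATAAA, found on either strand, in capitals. TAATTA is the core recognized by many homeodomain proteins and TATAAA is the TATA box.
Gsc, chr12:104473187-104473486, minus strand: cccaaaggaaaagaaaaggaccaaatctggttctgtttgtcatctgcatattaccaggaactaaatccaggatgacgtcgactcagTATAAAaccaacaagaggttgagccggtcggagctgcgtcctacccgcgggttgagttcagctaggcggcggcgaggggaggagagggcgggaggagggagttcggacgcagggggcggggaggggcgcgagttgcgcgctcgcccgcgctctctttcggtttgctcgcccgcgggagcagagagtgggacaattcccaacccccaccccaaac
Lhx8, chr3:154330511-154330810, minus strand: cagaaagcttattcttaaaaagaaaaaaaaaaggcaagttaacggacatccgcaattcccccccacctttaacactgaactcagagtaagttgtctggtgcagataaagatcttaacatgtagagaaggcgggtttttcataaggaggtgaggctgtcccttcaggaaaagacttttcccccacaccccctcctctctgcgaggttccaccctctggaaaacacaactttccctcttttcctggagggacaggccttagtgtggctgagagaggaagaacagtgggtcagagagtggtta
Shox2, chr3:66981722-66982021, minus strand: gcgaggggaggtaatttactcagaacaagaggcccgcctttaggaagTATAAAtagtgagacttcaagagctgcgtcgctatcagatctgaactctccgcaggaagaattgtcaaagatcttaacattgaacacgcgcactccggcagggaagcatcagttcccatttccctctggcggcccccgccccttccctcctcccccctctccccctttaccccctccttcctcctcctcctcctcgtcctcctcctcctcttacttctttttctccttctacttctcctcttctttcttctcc
Hand2, chr8:57320733-57321032, plus strand: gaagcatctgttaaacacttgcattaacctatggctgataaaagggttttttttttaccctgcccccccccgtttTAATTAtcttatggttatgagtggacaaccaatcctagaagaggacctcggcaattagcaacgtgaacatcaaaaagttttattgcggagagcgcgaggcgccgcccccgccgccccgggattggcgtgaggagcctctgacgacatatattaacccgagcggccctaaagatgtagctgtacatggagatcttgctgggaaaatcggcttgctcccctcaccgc
Counted from the RefSeq start, with minus for bases before it, TATAAA begins at -164 in the window of Gsc and at -203 in that of Shox2. TAATTA begins at -175 in the window of Hand2, and the window of Lhx8 holds neither. Of all 32851 windows in the RefSeq table, 5.29% hold TAATTA and 13.6% hold TATAAA, so these matches are a description of the letters and not of binding. Windows were also found for Barx1 and Lhx6. In the window of Gsc, the divergent transcript Gm10000 starts 95 bases before the RefSeq start and 1 base from the start of Gsc in the deposited table. The divergent transcript AI606473 starts 261 bases before the RefSeq start of Lhx8, and Rsrc1 starts within Shox2, 381 bases after its start, on the other strand.

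The 9 genes fell into those that were higher at later stages and those that were not. Osr1 and Osr2 were upregulated in both intervals, Shox2 was upregulated in the second interval and over the whole span, and Gsc was upregulated over the whole span. Pitx1 was downregulated in the first interval and over the whole span. Barx1, Lhx6 and Lhx8 were not called in any comparison, and Hand2 was too low for the test. A gene was called up- or downregulated where its log2 fold change was 1 or more in either direction and its adjusted p was at most 0.05. Every edgeR adjusted p given here comes from the quasi-likelihood test of edgeR, adjusted by Benjamini-Hochberg over all genes tested in that comparison.

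**Figure D1:**
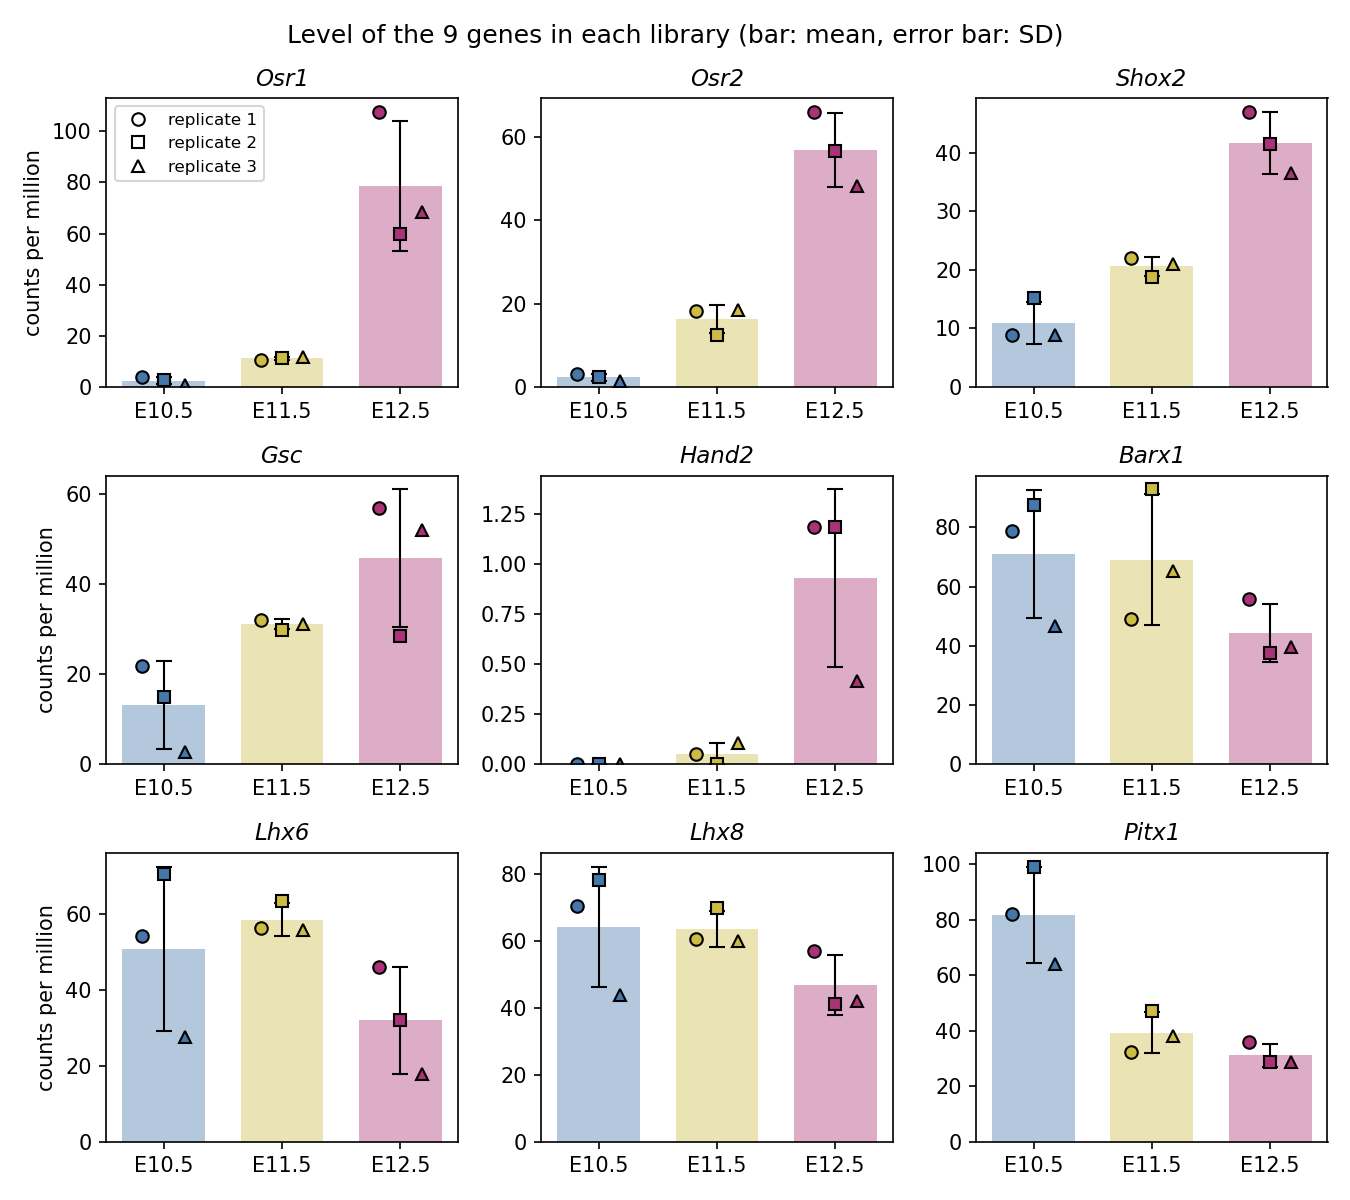
Level of each gene in CPM (linear axes from 0, a scale of its own per panel) at 3 stages. Points are libraries, bars are means and error bars are SDs of 3 libraries. Osr1, Osr2 and Shox2 show 3 separate stages, while the 3 stages of Barx1 overlap and Hand2 reaches at most 1.19 CPM.

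In E11.5 vs. E10.5, 2 of the 8 tested members were upregulated, against 3.46% of all 15708 genes tested, and 1 was downregulated, against 2.61%. An adjusted p of at most 0.05 regardless of fold was met by 4 members, against 11.8% of all genes. In E12.5 vs. E11.5, 3 of 8 were upregulated, against 4.14% of 15808 genes, and 0 were downregulated, against 0.962%. Here 4 members met the adjusted p alone, against 12.2% of all genes. In E12.5 vs. E10.5, 4 of 8 were upregulated, against 9.97% of 15899 genes, and 1 was downregulated, against 5.08%, with 5 members and 24.6% of all genes at an adjusted p of at most 0.05. The median log2 fold change of the 8 members was 0.56, 0.10 and 0.68 in these comparisons, and that of all genes tested was -0.032, 0.019 and -0.0063. The 3 comparisons share libraries, so they are not separate evidence. The 8 tested genes had at least 15 counts in every library, so none entered the tests through its high group only.

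**Figure D2:**
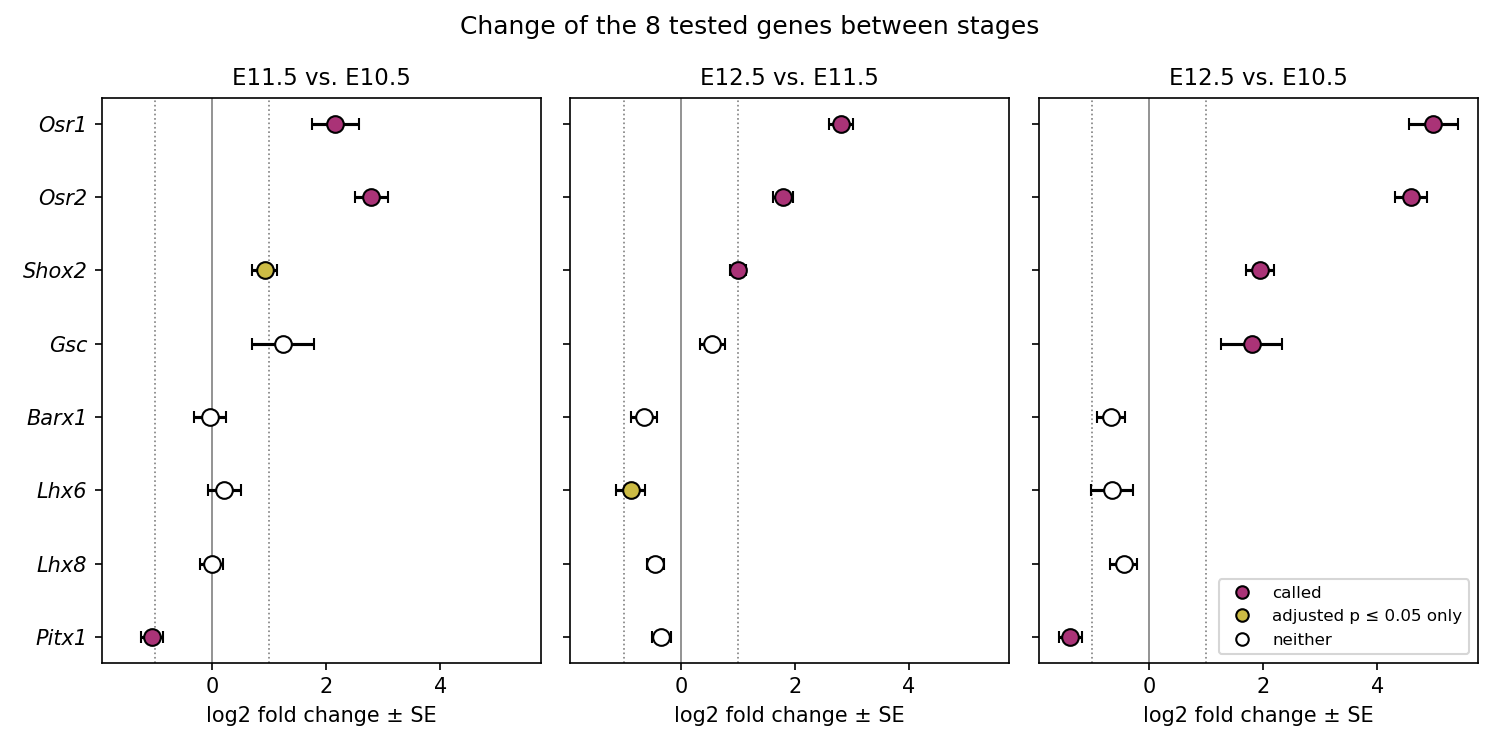
Log2 fold change with its standard error for the 8 tested genes in 3 comparisons of stages (3 libraries each). Filled purple points were called, yellow points had an adjusted p of at most 0.05 only, and dotted lines mark a log2 fold change of 1 in either direction. Osr1 and Osr2 lie farthest to the right in each panel, and Pitx1 is the only gene called downregulated.

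Osr1 and Osr2 encode zinc finger proteins of the odd-skipped family and had the largest changes of the 8 tested genes. The level of Osr1 was 3.98, 2.55 and 0.929 CPM in the E10.5 libraries, 10.5, 11.2 and 11.7 CPM at E11.5, and 107.6, 59.7 and 68.3 CPM at E12.5. The stages did not overlap, E11.5 libraries were close together, and at E12.5 replicate 1 was above the other two. Osr1 was upregulated with a log2 fold change of 2.16 (SE 0.40, edgeR adjusted p = 0.0140) in E11.5 vs. E10.5. Without any one of the E11.5 libraries the edgeR adjusted p was between 0.0531 and 0.0711, so that this call rests on having all 3. From E11.5 to E12.5 it was upregulated again, by 2.81 (SE 0.21, edgeR adjusted p = 3.96e-05), and the whole span came to 4.98 (SE 0.43, edgeR adjusted p = 2.00e-05), which is 31.6-fold.

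Osr2 stood at 3.15, 2.44 and 1.49 CPM in the E10.5 libraries. It was at 18.1, 12.4 and 18.5 CPM at E11.5 and at 66.0, 56.6 and 48.2 CPM at E12.5. Every library of a later stage was above every library of an earlier one. The log2 fold change was 2.79 (SE 0.29, edgeR adjusted p = 0.00171) in the first interval, 1.80 (SE 0.18, edgeR adjusted p = 2.16e-04) in the second, and 4.60 (SE 0.28, edgeR adjusted p = 2.57e-06) over the span, which is 24.2-fold. These 3 calls held without any single library, with edgeR adjusted p of at most 0.0186.

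Osr1 took its larger step in the second interval and Osr2 in the first, but neither difference between steps passed the test. The second log2 change minus the first was 0.66 (SE 0.59, edgeR adjusted p = 0.706) for Osr1 and -0.98 (SE 0.40, edgeR adjusted p = 0.351) for Osr2. Per kilobase of exon, the ratio of Osr2 to Osr1 within a library was 0.452, 0.545 and 0.901 at E10.5, 0.979, 0.634 and 0.897 at E11.5, and 0.350, 0.540 and 0.403 at E12.5. At E12.5 all 3 ratios were under those of E11.5, while E10.5 spanned values of both. An exact permutation test of the log2 ratio over the 3 stages gave p = 0.075, and 0.15 after adjustment over the 2 ratios tested, with 0.00357 as the smallest p that 1680 assignments allow. Without E10.5 replicate 3, the exact permutation p was 0.0357 before adjustment. Without any other single library it was between 0.0536 and 0.211.

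**Figure D3:**
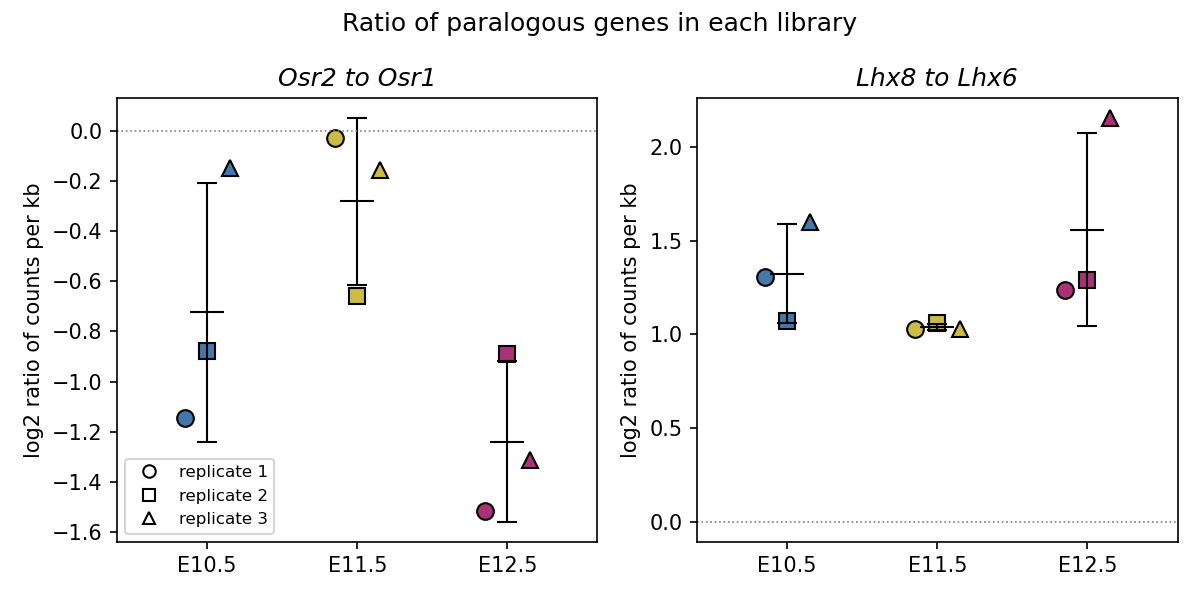
Log2 ratio of counts per kilobase of Osr2 to Osr1 and of Lhx8 to Lhx6 in each of 9 libraries, with the mean and SD per stage. The mean log2 ratio of Osr2 to Osr1 was lowest at E12.5, where the libraries overlapped those of E10.5. The 3 ratios of Lhx8 to Lhx6 at E11.5 lie between 2.04 and 2.08 on the linear scale.

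Shox2, a homeobox gene of limb, heart and palate, was at 8.85, 15.2 and 8.86 CPM at E10.5. It was at 22.1, 18.9 and 21.0 CPM at E11.5, and at 47.1, 41.5 and 36.6 CPM at E12.5. No 2 stages overlapped. In E11.5 vs. E10.5 its log2 difference of 0.92 (SE 0.23, edgeR adjusted p = 0.0379) met the p threshold but not the fold threshold. In E12.5 vs. E11.5 it was upregulated by 1.01 (SE 0.14, edgeR adjusted p = 0.00121), a value at the edge of the fold threshold that came to 0.99 with DESeq2 and to 0.92 without E12.5 replicate 1. Over the span it was upregulated by 1.94 (SE 0.25, edgeR adjusted p = 2.68e-04), or 3.83-fold. The difference between its successive log2 changes was 0.10 (SE 0.36, edgeR adjusted p = 0.939). Rsrc1, which shares 4.62% of the exon bases of Shox2 from the other strand, had log2 differences between 0.0039 and 0.094 in the same comparisons, and edgeR adjusted p of at least 0.755.

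Gsc encodes goosecoid, a homeobox protein first known from the gastrula organizer and needed for parts of the jaw and ear skeleton. Its level was 21.9, 14.9 and 2.79 CPM at E10.5, 32.1, 29.9 and 31.2 CPM at E11.5, and 57.0, 28.4 and 51.9 CPM at E12.5. E10.5 lay under both later stages, the E11.5 libraries were nearly alike, and E12.5 replicate 2 was under all of E11.5. Gsc was upregulated over the span by 1.80 (SE 0.53, edgeR adjusted p = 0.0309), or 3.48-fold. This call was lost with DESeq2 (adjusted p = 0.0944) and without E12.5 replicate 1 or 3 (edgeR adjusted p of 0.112 and 0.106). In the single intervals Gsc was not called, at 1.24 (SE 0.55, edgeR adjusted p = 0.185) and 0.55 (SE 0.22, edgeR adjusted p = 0.117).

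E10.5 replicate 3, with 45 counts of Gsc against 369 and 257 in the others, was the lowest library for this gene. Without it, the log2 difference of Gsc in E11.5 vs. E10.5 was 0.76 (edgeR adjusted p = 8.68e-04), under the fold threshold, and the change over the span was 1.33 (edgeR adjusted p = 0.00810). With the GC trend of each library removed, Gsc was upregulated in the first interval by 1.52 (edgeR adjusted p = 0.0230) and differed by 0.15 in the second (edgeR adjusted p = 0.597). The divergent transcript Gm10000 reached at most 21 counts in a library. Gm10000 was upregulated in E11.5 vs. E10.5 by 2.11 (edgeR adjusted p = 0.0437) and over the span by 2.45 (edgeR adjusted p = 0.00873), and its log2 difference in the second interval was 0.33 (edgeR adjusted p = 0.555). Over the 9 libraries, which share their stages, log2 CPM of Gm10000 and Gsc had r = 0.57.

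Hand2, a basic helix-loop-helix gene of the distal lower jaw, was nearly absent. It had 0 counts in all 3 libraries of E10.5, 1, 0 and 2 counts at E11.5, and 21, 22 and 7 counts at E12.5. The E12.5 libraries, at 1.18, 1.19 and 0.417 CPM, lay above all others. With a floor of 3 counts per library, E12.5 was higher than E10.5 by at least 5.18-fold, and its ratio to E11.5 was 18.3 (exact 95% interval 5.92 to 91.9, 50 against 3 counts, counting error only). The filter on low counts left Hand2 out, so it has no edgeR test here, while DESeq2, which kept it, gave adjusted p of 0.00283 for E12.5 vs. E11.5 and 1.61e-04 for E12.5 vs. E10.5. Hand2os1, an antisense transcript that shares 19.6% of the exon bases of Hand2, reached 4 counts at most.

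Barx1, Lhx6 and Lhx8 were among the higher members at E10.5 and had lower means at E12.5 than at E10.5, without passing the call. Barx1, a homeobox gene of molar and proximal jaw mesenchyme, was at 78.9, 87.6 and 46.8 CPM at E10.5. It was at 49.1, 92.9 and 65.4 CPM at E11.5 and at 55.7, 37.7 and 39.8 CPM at E12.5. All stages overlapped, and E10.5 replicate 3 and E11.5 replicate 1 were low for their stages. The log2 differences were -0.036 (SE 0.28), -0.65 (SE 0.22) and -0.67 (SE 0.25) in the first interval, the second and the span, with edgeR adjusted p of 0.950, 0.0847 and 0.0750. With the GC trend removed, the span gave -0.90 (edgeR adjusted p = 0.00119) and the second interval -0.97 (edgeR adjusted p = 0.00991), both past the p threshold and under the fold threshold.

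Lhx6 and Lhx8 encode LIM homeodomain proteins of oral jaw mesenchyme and of forebrain interneurons. Lhx6 was at 54.1, 70.4 and 27.5 CPM at E10.5, 56.3, 63.4 and 55.7 CPM at E11.5, and 45.9, 31.9 and 17.9 CPM at E12.5. All E12.5 libraries lay under all E11.5 libraries, and E10.5 overlapped both. The log2 difference in E12.5 vs. E11.5 was -0.88 (SE 0.26, edgeR adjusted p = 0.0493), which met the p threshold alone. It was -1.23 without E12.5 replicate 1 (edgeR adjusted p = 0.0288), past both thresholds. Without any one of the E11.5 libraries the edgeR adjusted p was between 0.0955 and 0.138, past neither. The edgeR adjusted p was also above 0.05 with all 9 libraries in the fit (0.135) and with upper quartile scaling (0.0605), while DESeq2 gave an adjusted p of 0.00501. The first interval gave 0.21 (SE 0.29, edgeR adjusted p = 0.683) and the span -0.66 (SE 0.37, edgeR adjusted p = 0.219).

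Lhx8 was at 70.5, 78.0 and 43.9 CPM at E10.5, 60.6, 69.6 and 59.9 CPM at E11.5, and 57.0, 41.1 and 42.0 CPM at E12.5. As for Lhx6, the E12.5 libraries were all under the E11.5 libraries and the E10.5 libraries spanned both. Its log2 differences were -0.012 (SE 0.20, edgeR adjusted p = 0.977), -0.45 (SE 0.15, edgeR adjusted p = 0.0754) and -0.45 (SE 0.24, edgeR adjusted p = 0.192). AI606473, whose start lies 162 bases from that of Lhx8 in the deposited table, had log2 differences of 1.09 (edgeR adjusted p = 0.0916), -0.55 (edgeR adjusted p = 0.0375) and 0.55 (edgeR adjusted p = 0.286), none of them called. Per kilobase, the level of Lhx8 was between 2.10 and 3.02 times that of Lhx6 at E10.5, between 2.04 and 2.08 times at E11.5 and between 2.35 and 4.45 times at E12.5. The 3 stages did not differ past the threshold in this ratio (exact permutation p = 0.189).

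Basal forebrain markers were read beside Lhx6 and Lhx8. Nkx2-1, the homeobox gene that induces both genes in the ventral forebrain, was at 31.4, 43.8 and 57.9 CPM at E10.5, at most 2.36 CPM at E11.5 and at most 0.958 CPM at E12.5. It was downregulated in E11.5 vs. E10.5 by a log2 fold change of -5.55 (edgeR adjusted p = 0.00439), while Lhx6 and Lhx8 had 0.21 and -0.012. Of the 6 markers, 0 were upregulated and 4 were downregulated in the first interval, and Gsx2 was at 0 CPM in all E12.5 libraries. The part of forebrain cells in the levels of Lhx6 and Lhx8 was not tested.

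Pitx1, a paired-like homeobox gene of oral ectoderm, lower jaw mesenchyme, pituitary and hindlimb, was the one member called downregulated. It was at 82.3, 98.9 and 64.2 CPM at E10.5. It was at 32.6, 47.3 and 38.1 CPM at E11.5 and at 35.8, 28.6 and 29.0 CPM at E12.5. Every E10.5 library lay above all others, while E11.5 and E12.5 overlapped. The log2 fold change was -1.05 (SE 0.19, edgeR adjusted p = 0.0126) in the first interval and -1.38 (SE 0.20, edgeR adjusted p = 7.13e-04) over the span, where the level fell to 0.383 of that at E10.5. The call of the first interval was close to both thresholds: the value was -0.90 without E10.5 replicate 2 and -0.94 with the GC trend removed, and the edgeR adjusted p was 0.0769 and 0.0729 without E11.5 replicate 1 or 3. The second interval gave -0.34 (SE 0.16, edgeR adjusted p = 0.185). With the GC trend removed it gave -0.69 (edgeR adjusted p = 0.0111), past the p threshold and under the fold threshold, and the span gave -1.66.

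Gm47071, an antisense transcript that shares 6.21% of the exon bases of Pitx1, was also downregulated over the span. Its log2 fold change was -1.50 (edgeR adjusted p = 0.00834), and its r with Pitx1 over the 9 libraries was 0.88. Markers of Rathke pouch, the pituitary primordium, where Pitx1 is also used, summed to between 3.65 and 7.67 CPM at E10.5, 2.58 and 3.80 CPM at E11.5, and 1.24 and 3.55 CPM at E12.5. One of the 5, Lhx4, was downregulated in the first interval, and their part in the fall of Pitx1 was not tested. Of 7 markers of epithelium, Krt5 was upregulated and Krt18 was downregulated in the first interval, and the summed level was between 385 and 697 CPM at E10.5 and between 398 and 425 CPM at E11.5.

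E10.5 replicate 3 was below the mean of E10.5 replicates 1 and 2 for every tested member. Its log2 CPM was lower than that mean by 2.65 for Gsc, 1.67 for Osr1 and 1.16 for Lhx6, and by between 0.38 and 0.85 for the other 5. The median difference of all genes was -0.0092. For Shox2, replicates 1 and 3 were alike, at 8.85 and 8.86 CPM, and replicate 2 was higher, at 15.2 CPM. The part given by the trend of all genes with GC content was -0.88 for Gsc, -0.41 for Osr1 and -0.37 for Lhx6. For Barx1, at 65.0% GC, the difference of -0.83 was nearly the trend of -0.81, and for Pitx1, at 65.8% GC, -0.49 was smaller than the trend of -0.85. Without this library the calls of Osr1, Osr2 and Pitx1 in E11.5 vs. E10.5 held, at log2 fold changes of 1.78, 2.55 and -1.20. Without it, Barx1, Lhx6 and Lhx8 in E12.5 vs. E10.5 came to -0.89 (edgeR adjusted p = 0.00664), -0.95 (edgeR adjusted p = 0.0407) and -0.66 (edgeR adjusted p = 0.0218), past the p threshold and still under the fold threshold.

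**Figure D4:**
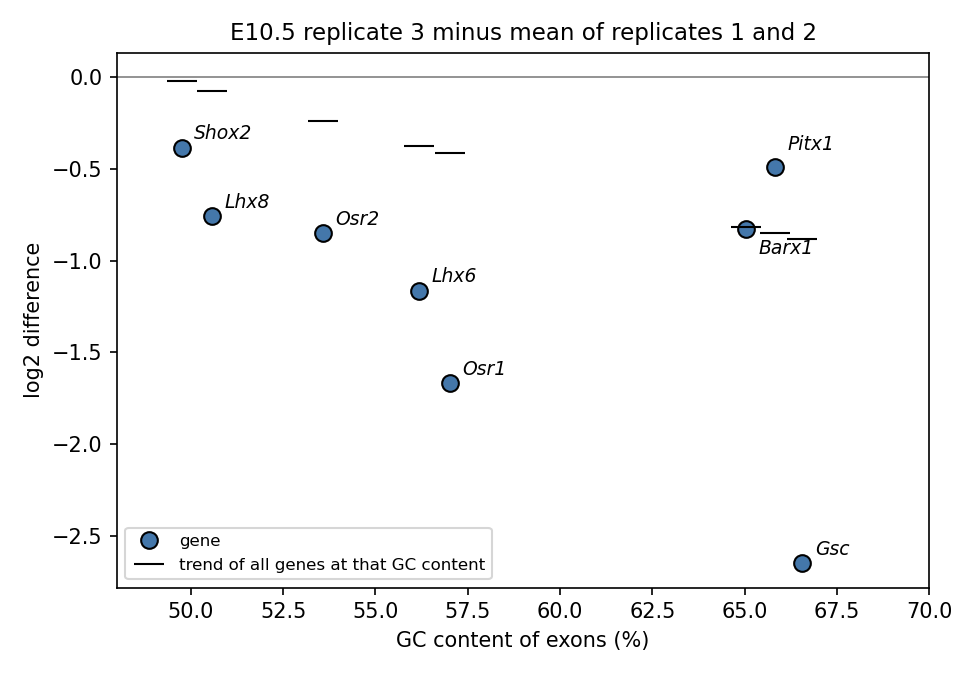
Log2 difference of E10.5 replicate 3 from the mean of E10.5 replicates 1 and 2 for the 8 tested genes (points). The other axis is the GC content of the exons in the longest transcript of each gene, in percent. Short lines give the trend of all genes at the same GC content. All 8 points lie under 0, and Gsc lies farthest below the trend.

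Scaled to exon length, the order of the genes turned over between the stages. At E10.5 Barx1 came first with a mean of 50.8 CPM per kilobase, followed by Pitx1 with 30.8, Lhx8 with 25.3 and Lhx6 with 10.5. Of these neighbours in the order, Lhx8 and Lhx6 did not overlap in their libraries, and the others did. Osr1 and Osr2 came just before Hand2 at the end, with 1.20 and 0.651 CPM per kilobase. At E11.5 Barx1, at 49.4 CPM per kilobase, was above all other members without overlap, and Lhx8 and Gsc followed with 25.0 and 24.5, which overlapped. At E12.5 Osr1, with 38.0 CPM per kilobase, Gsc, with 36.1, and Barx1, with 31.7, headed the order and each overlapped the next, while Pitx1, Lhx6 and Hand2 came last with 11.7, 6.64 and 0.395.

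The summed level of all 9 genes was between 86.4 and 163.6 CPM per kilobase at E10.5, 125.1 and 162.9 at E11.5, and 140.5 and 215.3 at E12.5, so the stages overlapped in this sum. Within the sum, Barx1 had a share of 38.3% ± 0.461 (SD, n = 3) in the E10.5 libraries. This share was 34.2% ± 6.34 at E11.5 and 18.5% ± 0.602 at E12.5. Osr1 and Osr2 had 0.856% ± 0.395 and 0.490% ± 0.0865 at E10.5, and 21.9% ± 2.003 and 9.33% ± 1.54 at E12.5. Pitx1 had 23.8% ± 3.73 at E10.5 and 6.94% ± 0.702 at E12.5.

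**Figure D5:**
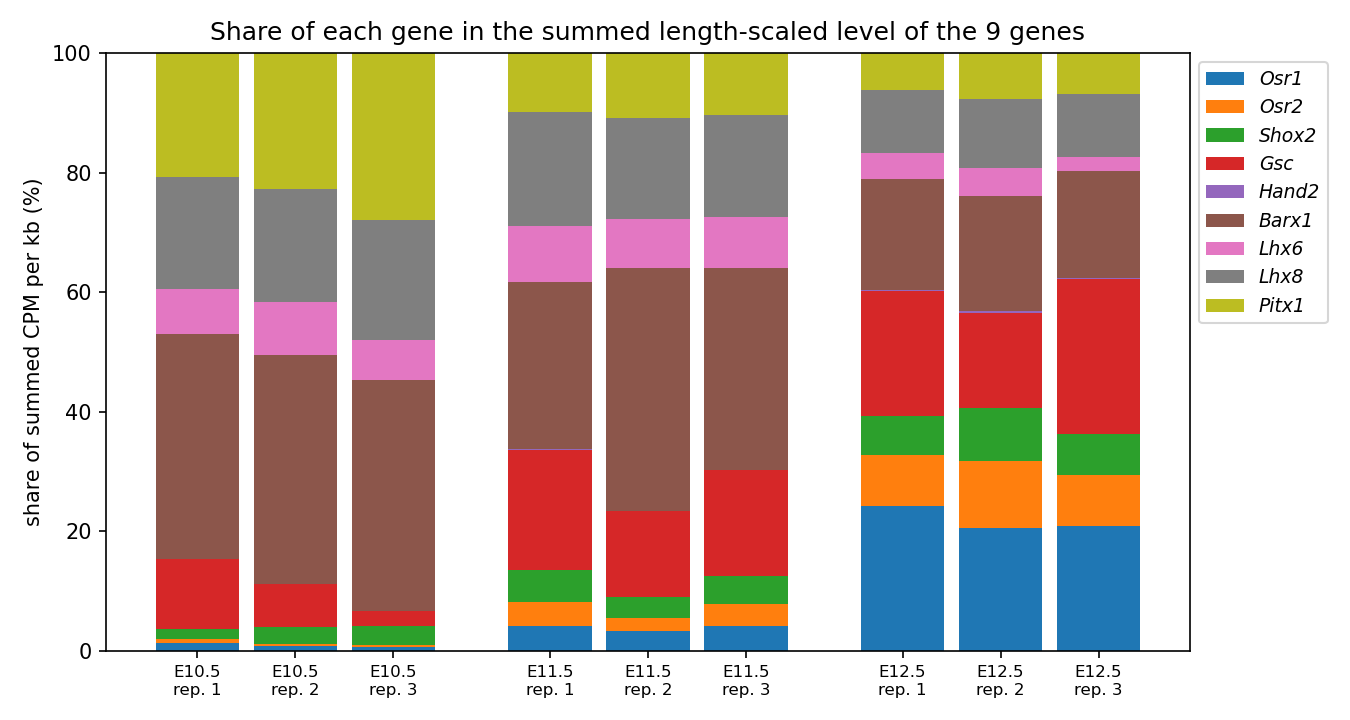
Share of each gene in the summed CPM per kilobase of the 9 genes, in percent, for each of 9 libraries. The shares of Osr1, Osr2 and Gsc widen and those of Barx1 and Pitx1 narrow from E10.5 to E12.5.

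Over the 9 libraries, log2 CPM of the members that were higher at later stages moved together, with r = 0.98 for Osr1 and Osr2, 0.95 for Osr1 and Shox2 and 0.96 for Osr2 and Shox2. Pitx1 ran opposite to Osr2, at r = -0.90. Barx1 and Lhx8 had r = 0.93 and Lhx6 and Lhx8 had r = 0.91. These points share their stages and libraries. Among 16375 genes, the 3 with a pattern most like that of Osr1 were Thra, Pld3 and Efemp2, with r of at least 0.993, and for Osr2 they were Nfia, Fstl1 and Mylip, with r of at least 0.996. For Shox2 the nearest were Pcdhb10, Rin2 and Adgrb2, and for Gsc they were Samd14, Caly and Trpt1, all with r of at least 0.98. Barx1 was nearest to Col13a1, Tmco6 and Tlx2, Lhx6 to Ccdc167, Gm16740 and Phc1, and Lhx8 to Gm48653, Gjc1 and Zfp553, at r between 0.954 and 0.971. Pitx1 was nearest to Mars, Bysl and Tbrg4, at r of at least 0.987.

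None of the 8 tested members passed the test of whether its 2 successive changes differed, against 1.18% of 16375 genes, by edgeR and by DESeq2 alike. At an unadjusted p under 0.05 there were 2 by either tool, with edgeR's being Osr2, given above, and Pitx1, whose second change was 0.72 (SE 0.33, edgeR adjusted p = 0.417) above the first. For Lhx6 the difference was -1.08 (SE 0.56, edgeR adjusted p = 0.483) and it passed only when all genes with at least 1 count were kept, at -1.12 (edgeR adjusted p = 0.0163).

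Genes of oral ectoderm and endothelin signals moved in different ways. Which cells held their transcripts, and whether they acted on the members here, was not tested. Of 8 genes of oral ectoderm and endothelin signaling, 2 were upregulated and 2 were downregulated in the first interval, with a median log2 fold change of -0.061, and 1 each way in the second. Fgf8 was downregulated in both intervals, by -1.28 (edgeR adjusted p = 0.00381) and -1.55 (edgeR adjusted p = 6.69e-04), and went from 38.3 ± 5.77 to 5.40 ± 1.08 CPM (SD, n = 3). Shh was downregulated by -2.56 (edgeR adjusted p = 0.00166) and then upregulated by 1.33 (edgeR adjusted p = 0.0102). Wnt5a and the endothelin receptor gene Ednra were upregulated in the first interval, by 1.72 (edgeR adjusted p = 0.00106) and 1.34 (edgeR adjusted p = 0.00250).

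Regional factors of the jaws were counted next. Of 7 genes listed for the lower jaw programme of Dlx5 and Dlx6, with both and Mef2c among them, 5 could be tested. Of these, 0 passed in the first interval, and Mef2c and Dlx4 were upregulated in the second, by 1.25 (edgeR adjusted p = 6.94e-04) and 1.44 (edgeR adjusted p = 0.0243). Whether Mef2c and Dlx4 act under Dlx5 and Dlx6 was not tested. Dlx5 and Dlx3 were not called over the span, at 0.70 (edgeR adjusted p = 0.0456) and 0.55 (edgeR adjusted p = 0.131). Hand1, the paralogue of Hand2, named after its values were seen, was at 0.297, 0.174 and 0.619 CPM at E10.5 and had no counts at E11.5 and E12.5, whereas the first counts of Hand2 were at E11.5. Of 7 genes listed as upper jaw factors, 0 were upregulated and 3 were downregulated over the span. These were Dlx2 by -1.75 (edgeR adjusted p = 1.64e-04), Dlx1 by -1.43 (edgeR adjusted p = 0.00198) and Nr2f1 by -1.21 (edgeR adjusted p = 6.64e-04). Nr2f2 was at -0.97 (edgeR adjusted p = 0.00184), under the fold threshold. The part of other tissue in the levels of these factors, such as basal forebrain, whose markers fell after E10.5, was not tested.

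Of 10 other factors of palate and tooth mesenchyme, 4 were upregulated in the first interval and 0 in the second, and none was downregulated. Over the span Runx2, the master gene of bone formation, was upregulated by 4.49 (edgeR adjusted p = 4.41e-05), Pax9 by 2.04 (edgeR adjusted p = 0.00183), Msx1 by 1.23 (edgeR adjusted p = 0.00376) and Efnb1 by 1.09 (edgeR adjusted p = 0.0152). Unlike Osr1, Osr2 and Shox2, none of these 10 was called in E12.5 vs. E11.5. The difference between the groups of genes was not tested. Of 5 genes placed downstream of Osr2 in the palate, the Wnt antagonist gene Dkk2 was upregulated in the first interval by 1.89 (edgeR adjusted p = 0.0201) and Bmp3 in the second by 2.59 (edgeR adjusted p = 1.82e-04). Sfrp2 and Sema3a were not called over the span, at 0.74 (edgeR adjusted p = 0.0278) and 0.28 (edgeR adjusted p = 0.454). No direction of control by Osr2 was set for these 5 genes, and the part of Osr2 in their levels was not tested.

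Among 13 paralogues and LIM cofactors of the members, 1 was upregulated and 3 were downregulated in the first interval. Ldb2, a cofactor of LIM homeodomain proteins, was upregulated by 1.01 (edgeR adjusted p = 0.00785). Lmo1, which competes for LIM cofactors, was downregulated by -2.45 (edgeR adjusted p = 0.00291) and then upregulated by 1.80 (edgeR adjusted p = 7.95e-04). Lhx2 was downregulated by -1.23 (edgeR adjusted p = 0.00130). Barx2 was not called over the span, at -1.13 (edgeR adjusted p = 0.0511), and Gsc2, the paralogue of Gsc, had at most 1 count in a library.

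Markers of other cell types were read beside these results. The 5 head muscle markers summed to between 8.30 and 20.3 CPM at E10.5 and between 1.78 and 2.87 CPM at E12.5. Des, the only 1 of them tested over the span, was downregulated by -4.22 (edgeR adjusted p = 5.85e-05), from a mean of 15.3 to 0.807 CPM. The untested markers had few counts and went both ways. Mean CPM rose from 0.0387 to 0.768 for Myog and from 0.0593 to 0.358 for Myod1. It fell from 0.571 to 0.418 for Myf5 and from 0.333 to 0.114 for Msc. Neuron markers summed to between 137 and 158 CPM at E10.5 and between 250 and 288 CPM at E12.5, with Stmn2 of 4 upregulated. Endothelial markers summed to between 92.4 and 233 CPM at E10.5 and between 190 and 253 CPM at E12.5, with 0 of 4 called. Blood markers, 4 globin and red cell genes, summed to between 1795 and 2718 CPM at E10.5 and between 3512 and 4574 CPM at E12.5, with 2 upregulated and 1 downregulated over the span. Epithelium markers summed to between 637 and 719 CPM at E12.5, where Krt5 and Krt14 were upregulated and Krt18 was downregulated against E10.5. The part of these cell types in the levels of the 9 genes was not tested.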

How the data were processed

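The deposited table holds raw read counts and FPKM per gene for 9 libraries. Per the labels, libraries were made with an Illumina TruSeq kit from total RNA. The authors mapped reads to GRCm38/mm10 with HISAT2 (2.0.5), counted reads per gene with featureCounts, and computed the deposited FPKM from counts and gene length. The strand setting, the treatment of reads with several positions and the annotation release are not given in the sources used here. The gene length column was used as deposited. Columns with the fold changes and p-values of the authors were not used.

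Counts were tested on 6 libraries per comparison with edgeR (4.0.16, R 4.3.3): filterByExpr, TMM and the quasi-likelihood test, with Benjamini-Hochberg adjustment over all genes tested. The study used DESeq2, which was run as an alternative (1.42.0). Whether successive changes differed was tested on all 9 libraries. CPM are counts scaled to a TMM-scaled library size of 1e6, and CPM per kilobase use the deposited gene length. Paralogue ratios, with 0.5 counts added, were tested by an exact permutation test over 9 libraries, because 3 against 3 libraries cannot go below 0.10. Its statistic was the spread between the means of the 3 stages, so it has no direction. Likeness is Pearson's r of log2 CPM with a prior count of 2. GC content was that of the longest vM21 transcript of a gene, for 54409 of 54495 matched gene IDs. The scripts were tested on simulated data.

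The members, gene lists and tests were chosen with earlier results of these data known. Named were all 9 members, up to 4 genes per list with the largest change over the span, list genes with at most 3 counts in every library, genes that overlap a member or start within 5000 bases of its start, and the 3 genes most like each member. Dlx6os1, on more than 1 row, was left out, and the values of some list genes are not reported here. Replicates of a stage differed by more than sampling noise. RefSeq promoter windows matched 6 of the 9 members. Intervals and floors cover counting error only.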

Additional observations from a re-analysis of the deposited data

How the results depend on the processing

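The calls were recomputed with other scalings, filters, tools, libraries and a GC correction. Members called in E11.5 vs. E10.5 numbered 3, and between 1 and 3 without single libraries, with 1 left without E11.5 replicate 1 or 3, and 4 with all genes of at least 1 count or with no fold threshold. In E12.5 vs. E11.5 they numbered 3 and in E12.5 vs. E10.5 they numbered 5, and these counts stayed between 2 and 4 and between 4 and 6, with Hand2 among those added where it passed the filter. The number of members whose successive changes differed was 0, and 1 when all genes with at least 1 count were kept, Lhx6. In E11.5 vs. E10.5 the sign was not settled for 3 uncalled genes. Barx1 was at 0.10 with the GC trend removed and between -0.30 and 0.16 without single libraries, Lhx6 between -0.085 and 0.52, and Lhx8 between -0.22 and 0.15. The log2 ratio of Osr2 to Osr1 at E12.5 minus that at E10.5 was -0.52, and between -0.73 and -0.23 without single libraries. The same for Lhx8 to Lhx6 was 0.23, and between -0.063 and 0.40, with the lowest value without E12.5 replicate 3. The causes of these changes were not tested. Of the recomputed log2 fold changes of single members, 306 kept sign and call, 11 changed sign, 4 gained and 15 lost a call. Replicate numbers did not pair the libraries (r between -0.15 and 0.22 over same-numbered pairs). With the replicate block the 3 counts of calls were 3, 3 and 5, as without it, and Lhx8 was at 0.024 in E11.5 vs. E10.5. At this depth the few counts of Hand2 give a bound against E10.5 and a wide interval against E11.5.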
